A study of Mus musculus with 31 samples.

Results

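The livers of 4 female WSB/EiJ mice given vehicle were set against the livers of 12 vehicle-treated female mice of 3 other inbred strains, 4 each of MA/MyJ, NZW/LacJ and SM/J. These 16 arrays were chosen by strain and treatment from the 31 of the series; the other 15 came from mice of the same strains given 600 mg/kg of PF-04287881, a compound known here by its code. Vehicle was sterile water, given by mouth each day for 7 days, so the animals were gavaged controls and not untouched mice. They entered the study at 8 to 10 weeks of age, and RNA came from the left liver lobe frozen 24 hours after the last dose. Nothing distinguishes the 4 animals of a strain beyond a number, so a p-value here measures the spread between these animals, pooled over the strains. The sources used here carry a histology label per strain, with vacuolated Kupffer cells recorded for MA/MyJ and NZW/LacJ and not for WSB/EiJ or SM/J, and single cell necrosis recorded for NZW/LacJ alone; the same entries stand on the vehicle and the drug arrays.

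WSB/EiJ is an inbred strain founded from wild-caught house mice, whereas MA/MyJ, NZW/LacJ and SM/J are laboratory strains. Most hepatic messenger RNA comes from hepatocytes, which make plasma proteins, bile acids and lipoproteins and clear drugs and steroids through cytochrome P450 enzymes, conjugating enzymes and membrane transporters. Many of these genes in the mouse differ between the sexes under the pattern of growth hormone secretion, are graded from the portal to the central vein, or follow the circadian clock. The arrays carry short probes designed on a reference mouse sequence, so a variant carried by a strain under a probe can lower its signal without a change in the RNA.

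The files hold log2 intensities, the median of the 16 vehicle arrays lying between 6.43 and 6.54. Genes were tested when their probe set exceeded the overall median of 6.49 in at least 4 vehicle arrays; 12461 of 18146 genes with a probe set did. The labelled sex held, with Xist above that level in 16 of 16 arrays and the Y-linked genes Eif2s3y, Kdm5d and Uty above it in 0. WSB/EiJ vehicle animal 4 stood apart from its group. On a scale built from probe sets private to WSB/EiJ, where the other strains sit near 0 and WSB/EiJ near 1, it lay at 0.749 while WSB/EiJ animals 1 to 3 lay between 0.987 and 1.04; it was near 0 on the scales of the other 3 strains. Each scale was remade without the array placed, from 71 probe sets for animal 4 and 45 to 48 for animals 1 to 3. Those for animals 1 to 3 had to set animal 4 apart as well, which can widen the gap. The mean correlation of animal 4 with the other WSB/EiJ arrays, after gene centring, was 0.348 against 0.509 to 0.640 for animals 1 to 3. Results are therefore given with and without it. Among the drug-treated animals, animal 3 under the WSB/EiJ label was placed at -0.006 on the WSB/EiJ scale and at 1.01 on the NZW/LacJ scale, and drug values leave it out unless stated.

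Against the equal-weight mean of the 3 other strain means, 2792 genes were higher in WSB/EiJ (22.4% of those tested) and 2447 were lower (19.6%), 5239 or 42% in all, at a Benjamini-Hochberg adjusted p under 0.05 in limma's moderated test. Of these calls 53.3% were higher, and 43.5% were when each array was shifted to 1 median, so the balance of the 2 directions depends on the scaling. A gene is said to pass, or to be higher or lower, by that rule below. The vehicle counts of each gene list below are to be read against these shares, 22.4% higher and 19.6% lower. For 4767 of them (38.3%) the WSB/EiJ mean also lay beyond all 3 strain means, 2564 above (20.6%) and 2203 below (17.7%), and for 472 (3.79%) it lay between them. All 4 WSB/EiJ animals lay outside the range of the 12 others for 1202 genes (9.65%), 570 on the high side (4.57%) and 632 on the low side (5.07%). Differences of at least 1 log2 unit that passed numbered 488 (3.92%), 212 higher (1.7%) and 276 lower (2.21%). Taken against 1 strain at a time, 4094 genes passed against MA/MyJ (32.9%), 5312 against NZW/LacJ (42.6%) and 4650 against SM/J (37.3%), and 1814 passed against each with 1 sign (14.6%), 935 higher (7.5%) and 879 lower (7.05%). Without animal 4, 6141 genes passed (49.3%), 3296 higher (26.5%) and 2845 lower (22.8%), and 4978 (39.9%) passed with and without it with the same sign. List counts without animal 4 are to be read against 26.5% and 22.8%. The same contrast made for each of the other strains in turn gave 3008 genes for MA/MyJ, 4212 for NZW/LacJ and 3161 for SM/J; the contrasts share arrays and were not compared by a test. The median within-strain SD over genes was 0.183 in WSB/EiJ, or 0.158 without animal 4, and 0.088 to 0.132 in the other strains. The fit pools the spread of a gene over the strains. Where the WSB/EiJ animals vary more than the others, as for Car3, Ddit4 and Akr1c6 below, its errors and p-values understate the WSB/EiJ spread.

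**Figure D1:**
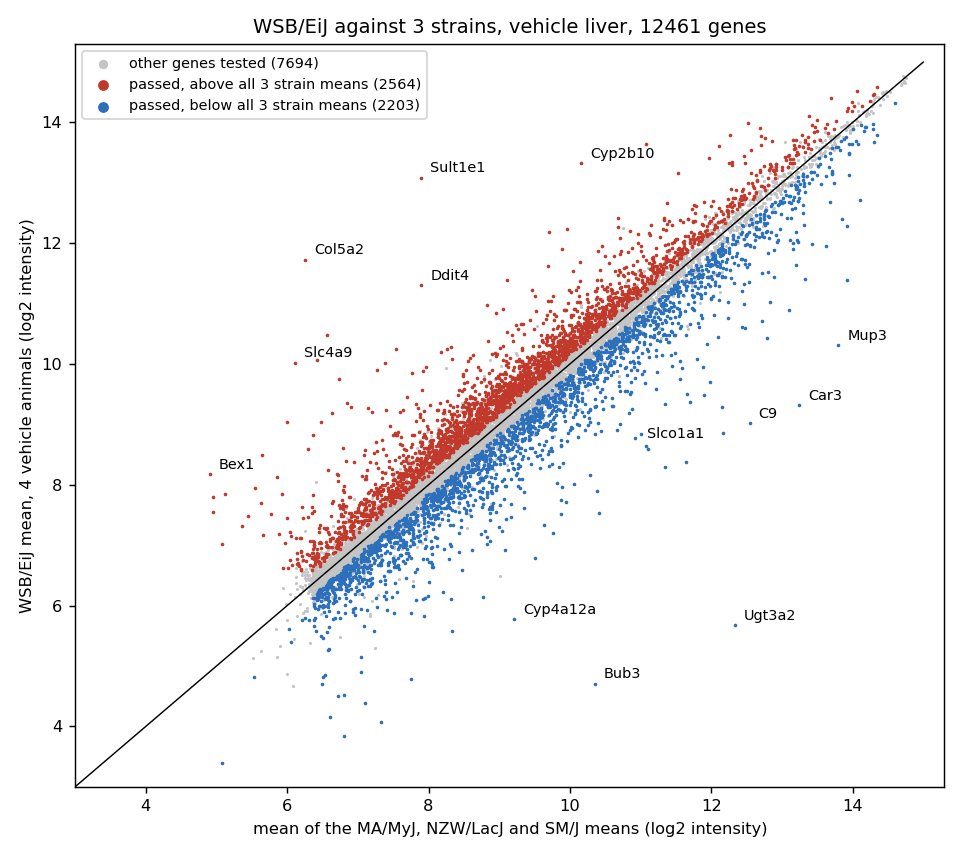
Each point is 1 of 12461 genes, with the mean of the MA/MyJ, NZW/LacJ and SM/J means on the x axis and the WSB/EiJ mean of 4 vehicle animals on the y axis, both in log2 intensity; the line marks equal levels. Red points (2564) passed and lie above all 3 strain means, blue points (2203) passed and lie below them, and Ugt3a2 and Bub3 are far below the line, Col5a2 and Sult1e1 far above it.

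The lowest gene relative to the other strains was Ugt3a2, a UDP-glycosyltransferase. Its log2 intensity was 6.27, 5.48, 5.18 and 5.76 in the 4 WSB/EiJ animals and 12.09 to 12.43, median 12.35, in the 12 others. The WSB/EiJ animals were all low, below the 6.49 level that marks the dim part of the array, and the others all bright, with no overlap. A fold between a bright and a dim group is a ratio of intensities and depends on the array's floor. The difference was -6.66 ± 0.14 (SE), a 101-fold lower intensity (adjusted p = 8.92e-15). A single probe set carries the gene, so a probe variant could not be checked against another. C9, the last component of the complement pore, read 9.69, 9.67, 8.15 and 8.56 in WSB/EiJ and 12.11 to 13, median 12.54, in the others, a difference of -3.53 ± 0.22 (adjusted p = 1.05e-08). Mup3, a major urinary protein that binds pheromones, read 10.35, 10.21, 9.41 and 11.29 against 13.38 to 14.12, median 13.79, and differed by -3.48 ± 0.21 (adjusted p = 5.94e-09). In both genes every WSB/EiJ animal lay below every other animal; the Mup genes are a family of near copies whose probes can share signal.

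Slco1a1, an organic anion uptake transporter of the sinusoidal membrane, read 8.58, 8.53, 8.25 and 10.08 in WSB/EiJ and 11.40 to 12.50, median 12.35, in the others. The groups did not overlap, animal 4 being the WSB/EiJ animal nearest to the other strains, and the difference was -3.31 ± 0.24 (adjusted p = 6.07e-08; -3.72 without animal 4). Car3, a carbonic anhydrase that is abundant in liver, muscle and fat, showed the same order more widely, at 9.27, 7.83, 8.05 and 12.14 against 12.88 to 13.56, median 13.21. Its difference was -3.92 ± 0.51 (adjusted p = 2.28e-05) and -4.86 without animal 4. Cyp4a12a, a fatty acid hydroxylase of the P450 family, differed by -3.43 and Rdh9, a retinol dehydrogenase family member, by -3.26. Hsd3b2, of the 3-beta-hydroxysteroid dehydrogenase family, differed by -3.25 and Inhbe, which encodes the hepatic inhibin beta E subunit, by -3.05. Sult1c2, a sulfotransferase, differed by -2.75 and Hint3, a histidine triad nucleotide-binding protein, by -2.87, with WSB/EiJ animals at 7.32 to 7.75 and the others at 9.92 to 10.84 for Hint3. G0s2, an inhibitor of the lipase Pnpla2, differed by -2.87 (adjusted p = 0.000428), but animal 4 at 11.32 fell among the other strains, which spanned 10.60 to 13.04; without animal 4 the value was -3.55. Nxpe2 (-2.97) and Dclk3 (-2.96), a kinase of the doublecortin-like family, complete the 15 lowest with Bub3, described with its other probe sets below.

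The highest gene relative to the other strains was Col5a2, a fibrillar collagen chain. It read 11.44, 11.63, 11.38 and 12.46 in WSB/EiJ and 5.70 to 7.11, median 6.24, in the 12 others. The gap was wide and without overlap, at 5.47 ± 0.16 or 44.5-fold (adjusted p = 1.66e-12). Sult1e1, the estrogen sulfotransferase, read 13.18, 13.33, 13.08 and 12.75 in WSB/EiJ against 6.42 to 8.99, median 8.23. All 4 WSB/EiJ animals were high, close to each other, and 5.19 ± 0.32 above the other strains, or 36.4-fold (adjusted p = 8.35e-09). Slc4a9, an anion exchanger, read 10.23, 9.93, 10.04 and 9.90 against 5.85 to 6.51, median 6.09 (3.91 ± 0.08, adjusted p = 8.92e-15). Bex1, a small brain-expressed protein, read 8.31, 7.97, 8.85 and 7.58 against 4.09 to 5.76, median 4.87 (3.27 ± 0.24, adjusted p = 5.69e-08). In both genes WSB/EiJ lay above the dim range and the other strains in it, apart from a Slc4a9 value of 6.51 just over the 6.49 level. Cpm, a membrane carboxypeptidase, was 2.71 higher, Orm3, of the orosomucoid family, 2.64, Serpina3a, of the serine protease inhibitor family, 2.73, and Nebl, a nebulin-related actin-binding protein, 2.59, each without overlap between WSB/EiJ and the others. Serpina4-ps1 (3.04), Rnf225 (3.03), Cenpm (2.64), a centromere protein, and Pde6h (3.63), known as a cone phosphodiesterase subunit, also had no overlap. Bex1, Serpina3a and Nebl exceeded the 6.49 level in 4 vehicle arrays, those of WSB/EiJ. These 3 genes were therefore tested only because WSB/EiJ was high, and the other strains lay in the dim range. Cyp3a16, a P450 of the female-predominant Cyp3a group, was 2.85 higher with a wider spread, WSB/EiJ lying at 6.63 to 8.80 and the others at 3.54 to 6.83.

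Ddit4 and Cyp2b10 were higher in WSB/EiJ animals 1 to 3 than in animal 4. Ddit4, a stress-induced inhibitor of mTORC1, read 10.94, 13.11, 13.07 and 8.11 in WSB/EiJ and 7.07 to 9.24, median 7.71, in the others, so animal 4 lay inside the range of the other strains. The difference was 3.41 ± 0.63 (adjusted p = 0.000466) with animal 4 and 4.47 without it. Cyp2b10, the P450 that the nuclear receptor CAR induces, read 13.46, 13.92, 14.03 and 11.88 against 8.66 to 12.56, median 9.46. MA/MyJ, at a mean of 11.86, was the nearest strain and overlapped with animal 4, and the difference was 3.17 ± 0.34 (adjusted p = 3.29e-06). Nrg4, a growth factor of the neuregulin family, behaved likewise at 9.11, 10.80, 9.81 and 7.38 against 5.71 to 8.11 (2.13, or 2.76 without animal 4).

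**Figure D2:**
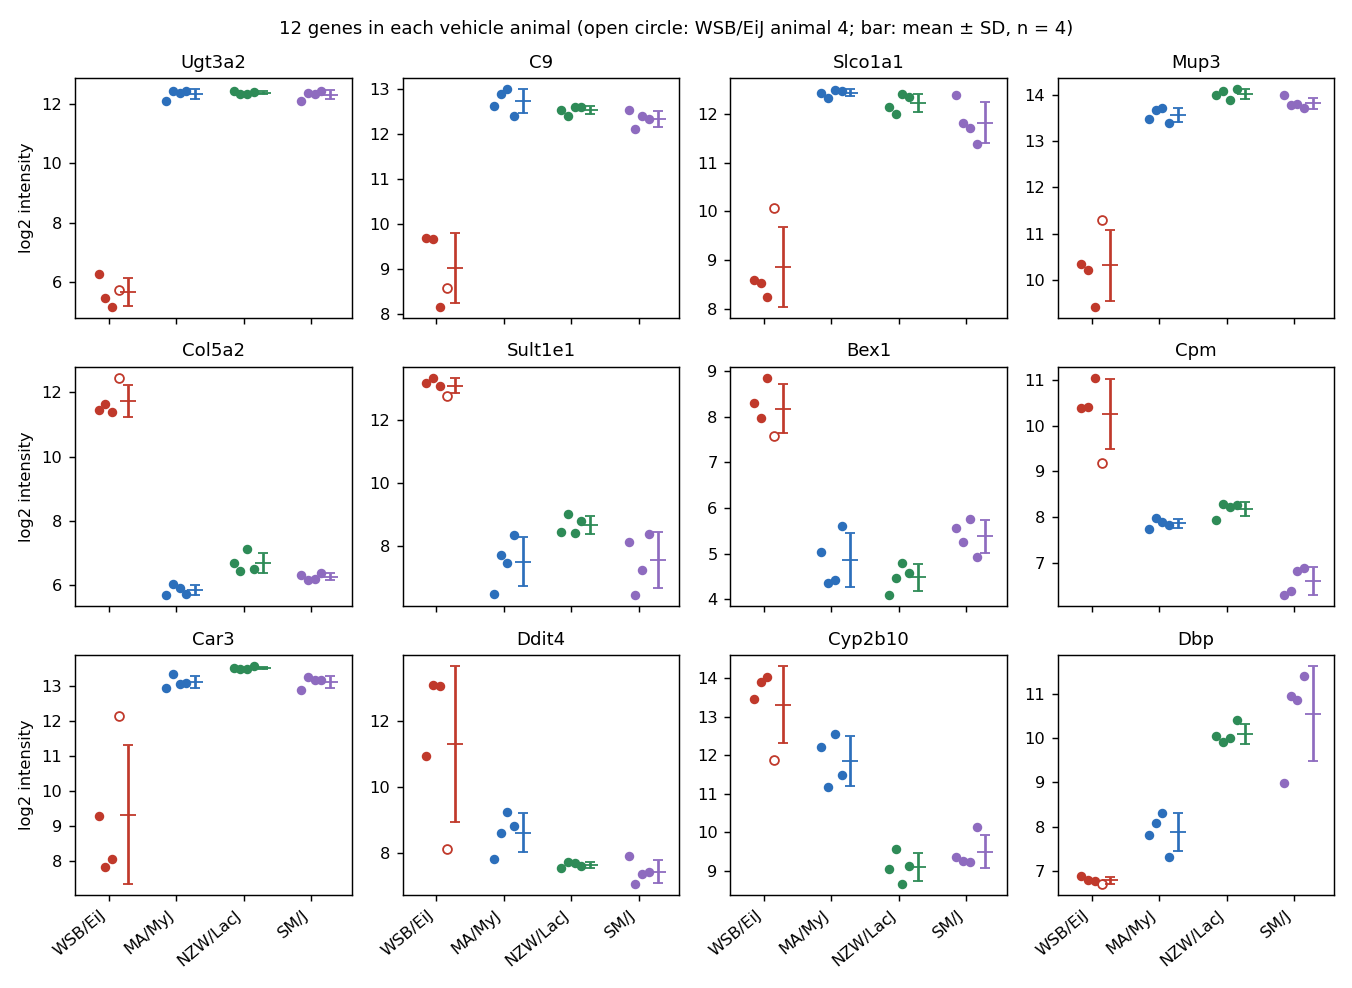
Log2 intensity (y axis) of 12 genes in each vehicle animal by strain (x axis), with the mean and SD of 4 animals beside the points and WSB/EiJ animal 4 as an open circle. Ugt3a2, C9, Slco1a1 and Mup3 are low and Col5a2, Sult1e1, Bex1 and Cpm high in all 4 WSB/EiJ animals, whereas in Car3, Ddit4 and Cyp2b10 animal 4 (12.14, 8.11 and 11.88) lies nearest to the other strains.

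Probe sets of the same gene gave a check on variants under the probes. Of the 4767 genes that passed beyond all 3 strain means, 2558 had a single probe set above the filter and could not be checked. Of the 2209 with several, all probe sets shared the sign in 1689 (76.5%) and all passed in 990 (44.8%); among genes that did not pass, the signs were shared in 55.9%. Among genes with a difference of at least 1, signs were shared in 154 of 170 and all probe sets passed in 128. Probe sets below the filter were left out of these counts. With no filter on probe sets, signs were shared in 1866 of 2917 genes that passed beyond all 3 strain means. Bub3, a spindle checkpoint protein, was the plainest exception. The probe set that represents it read 5.09, 4.42, 4.74 and 4.59 in WSB/EiJ against 10.15 to 10.62 (-5.64 ± 0.09, adjusted p = 4.67e-16). The other bright probe set, above the filter in 16 of 16 arrays, differed by 0.08 and did not pass. Whether Bub3 differed therefore depends on the probe set. Mup3, Nebl and Nxpe2 each had further probe sets that were dim in all 16 arrays. Like Ugt3a2, the low genes C9, Cyp4a12a, Rdh9, Hsd3b2, Inhbe, Dclk3, G0s2, Hint3 and Sult1c2 had a single probe set. So did the high genes Sult1e1, Slc4a9, Ddit4, Bex1, Cyp3a16, Serpina3a, Cenpm and Orm3. None of these could be checked for a variant under the probes. The genes with the largest difference in their least different probe set were, on the low side, Slco1a1 (-3.31 and -4.0), Dbp (-2.72 and -2.55) and Ociad2 (-2.36 and -3.29). Nat8f2, an N-acetyltransferase family member, was lower by all of its 3 probe sets, from -2.02 to -2.26, and Tpmt, the thiopurine methyltransferase, by all of its 3, from -1.49 to -2.50. On the high side they were Col5a2 (5.47 and 4.60), Cyp2b10 (3.17 and 3.25), Cpm (2.71 and 2.79) and Nrg4 (2.13 and 2.33), followed by Btg2, an antiproliferative gene (2.15 and 1.98), and Clca3a1 (1.97 and 2.47), with Serpina4-ps1 higher by 3 probe sets, from 3.04 to 4.47. The second probe sets of Col5a2, Cpm and Clca3a1 exceeded the filter in 4 vehicle arrays, the fewest it allows. A probe set can meet that number through a high WSB/EiJ group alone, so the filter favours agreement on the high side. The size depended on the probe set for Pde6h (3.63 and 1.5) and Rnf225 (3.03 and 1.05). Mndal, an interferon-inducible Ifi200 family gene, differed by -2.45, yet SM/J lay at a mean of 4.46 beside 4.16 in WSB/EiJ. Plaat3, a phospholipase and acyltransferase, differed by -1.99, yet MA/MyJ lay at 6.34 beside 6.22. For those 2 genes the WSB/EiJ level was shared with 1 other strain, and neither passed against each of the 3.

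Liver genes known to be higher in males than in females were mostly lower in WSB/EiJ, every mouse here being female. Of 24 tested, 18 were lower in WSB/EiJ and 2 were higher, against 19.6% and 22.4% of all genes, and the median difference was -1.24 against 0.00 over all genes. Without animal 4, 17 were lower and 2 higher. C9, Mup3, Cyp4a12a, Slco1a1 and Hsd3b2, described above, were the largest. Nox4, an NADPH oxidase, differed by -2.72, Nudt7, a peroxisomal coenzyme A hydrolase, by -2.16 and Cyp2d9, a steroid hydroxylase, by -1.76 (-1.22 without animal 4). Hsd3b5, the textbook male-predominant steroid dehydrogenase, differed by -2.15, but this rested on NZW/LacJ: strain means were 4.89 in WSB/EiJ, 5.05 in SM/J, 5.83 in MA/MyJ and 10.24 in NZW/LacJ. The 2 that were higher were Elovl3, a fatty acid elongase (1.38), and Gstp1, a glutathione transferase (0.38), whose call was lost in 12 of the 16 fits that left out 1 animal, 3 of them for each strain. The mean level over the 24 genes was 8.35 to 8.63 in the WSB/EiJ animals and 9.32 to 10.54 in the others. In WSB/EiJ animals given PF-04287881, 16 of the 24 were lower than in the drug-treated animals of the other strains and 0 were higher, with a median of -0.75. On the drug 28% of all genes were lower and 24% higher.

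Genes known to be higher in females did not move to one side. Of 22 tested, 5 were higher and 6 lower, shares of 22.7% and 27.3%, with a median of 0.19. Cyp3a16, Cyp17a1, the steroid 17-hydroxylase (2.57 ± 0.19), and Cyp3a44 (1.99 ± 0.25) were higher. Cyp17a1 read 13.72, 13.61, 13.57 and 13.69 in WSB/EiJ and 9.34 to 13.03 in the others, SM/J being the nearest strain at a mean of 12.87. Cyp2b13, another female-predominant P450, was lower (-1.82), as was Acot3, a peroxisomal acyl-CoA thioesterase (-1.51).

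Of the 20 genes of the growth hormone axis, 5 were higher (25%) and 6 lower (30%), against 22.4% and 19.6% of all genes. Ghr, the growth hormone receptor, read 11.61, 11.42, 10.34 and 12.42 in WSB/EiJ and 12.48 to 13.15, median 12.89, in the others. All 4 animals lay below all 12, and the difference was -1.44 ± 0.23 (adjusted p = 0.000146; -1.77 without animal 4). Igfals, which stabilises circulating IGF1, differed by -1.26 ± 0.29 and Stat5a, a signal transducer of the receptor, by -0.59 ± 0.16. Igfals read 9.63, 8.83 and 8.68 in animals 1 to 3 and 11.05 in animal 4, within the 10.44 to 11.19 of the other strains. Igf1 itself, the main hormone of the axis, differed by -0.10 ± 0.06 on its brightest probe set and did not pass (adjusted p = 0.147), but it passed as lower on the mean of its 4 probe sets (-0.42), without the probe sets that match several transcripts (-0.56) and without animal 4 (-0.16). Igfbp1, a binding protein that fasting raises, was 1.47 ± 0.25 higher, and Foxa3, a hepatic forkhead factor, 1.19 ± 0.16 higher, the latter without overlap at 11.86 to 12.53 against 10.45 to 11.58.

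**Figure D3:**
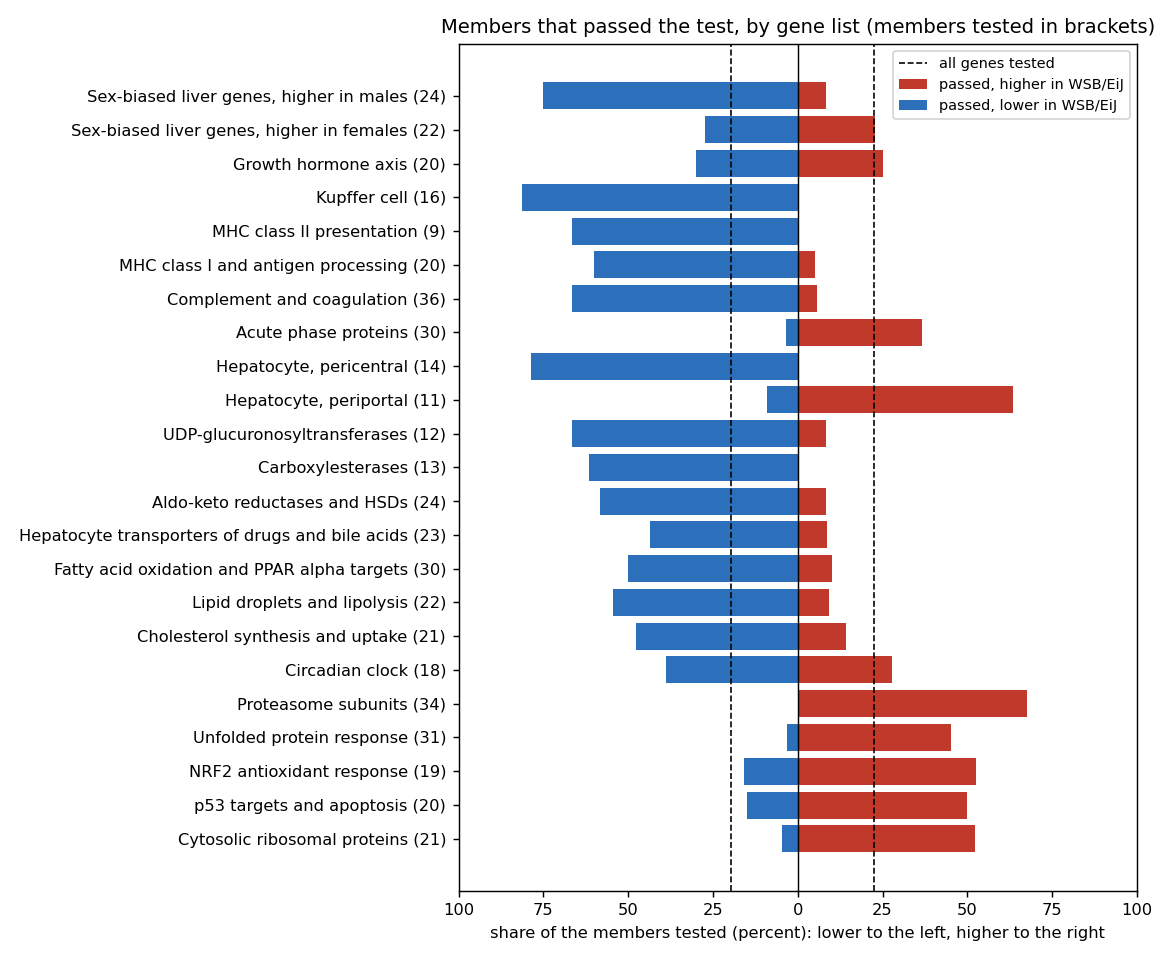
Bars give, for 23 gene lists, the percent of the members tested that passed as lower (blue, left) or higher (red, right) in WSB/EiJ vehicle liver; dashed lines are the same shares over all genes tested, 19.6% and 22.4%. Lists of male-biased genes, Kupffer cell markers, complement and pericentral genes lie mostly to the left and the proteasome list (67.6% higher, 0% lower) to the right.

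Enzymes that conjugate, hydrolyse or reduce drugs and steroids differed by family. Of 12 genes tested on the UDP-glucuronosyltransferase list 8 were lower and 1 was higher, the higher one being Ugdh (0.63), which makes the UDP-glucuronic acid that the transferases use. After Ugt3a2, the largest were Ugt2b1 (-1.20), Ugt2a3 (-0.74) and Ugt3a1 (-0.64, or -0.39 without WSB/EiJ animal 3). Of 13 carboxylesterase list members, which hydrolyse ester drugs and lipids, 8 were lower and 0 higher, led by Ces1g (-1.88), Ces2g (-1.03) and Ces2e (-0.97). Aldo-keto reductases and hydroxysteroid dehydrogenases counted 14 lower and 2 higher of 24. Akr1c6, a 17-beta-hydroxysteroid dehydrogenase, read 11.67, 11.17, 9.48 and 13.28 in WSB/EiJ and 13.71 to 14.05, median 13.95, in the others (-2.52 ± 0.40, adjusted p = 0.000141). Its WSB/EiJ animals were spread over nearly 4 log2 units while the other 12 lay close together, and the value was -3.15 without animal 4. Hsd3b3 (-2.15) and Akr1c20 (-1.71) were also lower. Glutathione transferases counted 9 lower and 6 higher of 21; Mgst2 was lower on the contrast (-1.73), but only NZW/LacJ, at a mean of 11.01, was bright, and MA/MyJ (6.25) and SM/J (6.21) lay beside WSB/EiJ (6.10). Many of these enzymes belong to families of similar sequence, whose probes can share signal.

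Sulfotransferases went to both extremes. Beside Sult1e1 at the top and Sult1c2 near the bottom of all genes, Sult3a1 was higher (1.08) and Sult2a8 lower (-1.56). Of 26 Cyp2 genes 4 were higher and 10 lower, but 8 were higher without WSB/EiJ animal 3. Over all genes 22.4% were higher and 19.6% lower with all animals. Without animal 3 the higher calls over all genes fell from 2792 to 2408. Of 18 genes of the Cyp1, Cyp3a and Cyp4 list 6 were higher and 7 lower. Cyp1a2, which clears caffeine and activates aromatic amines, read 11.44, 10.90, 10.14 and 11.62 against 12.38 to 13.08, median 12.97 (-1.81 ± 0.18, adjusted p = 1.63e-06). All WSB/EiJ animals lay below the others. Cyp2c70, a muricholic acid synthase, was 0.93 higher, whereas Cyp2e1, the ethanol-oxidising P450, differed by -0.10 ± 0.04 and did not pass (adjusted p = 0.0686), while it passed when the arrays were shifted to 1 median (-0.15).

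Among 23 hepatocyte transporters of drugs and bile acids 10 were lower and 2 higher. Besides Slco1a1, Slc22a30, of the organic anion transporter family, differed by -2.05 ± 0.28 and Abcg2, the canalicular efflux pump known as breast cancer resistance protein, by -1.05 ± 0.08. Abcg2 was at 9.97, 9.91, 9.72 and 10.00 in WSB/EiJ and 10.66 to 11.24, median 10.92, in the others, a narrow and non-overlapping difference. Abcb1b, a P-glycoprotein, differed by -1.79 ± 0.16, with SM/J at 5.04 near WSB/EiJ at 4.69 and both in the dim range. Slc10a1, the main sodium-dependent bile acid importer, differed by -0.15 and did not pass, and differed by -0.25 and passed without animal 4. Abcb11, the bile salt export pump, was 0.38 higher, a call lost without WSB/EiJ animal 1, 2 or 4.

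Lipid genes differed by list, where 22.4% of all genes were higher and 19.6% lower. Of 27 genes of lipogenesis and triglyceride synthesis 7 were higher and 9 lower, with a median of -0.03, and of 21 genes of apolipoproteins and plasma lipid transport 3 were higher and 2 lower, with a median of 0.02. Of 30 targets of PPAR alpha or fatty acid oxidation enzymes 15 were lower and 3 higher, with a median of -0.25. Ppara, the nuclear receptor that drives this program, read 10.81, 10.90, 10.41 and 11.17 in WSB/EiJ and 11.40 to 12.13, median 11.96, in the others, a non-overlapping difference of -1.04 ± 0.11 (adjusted p = 2.23e-06). Acot3 (-1.51), Cyp4a31 (-1.18) and Acot4 (-1.15) were the largest below it, and Cpt1a, which admits fatty acids to mitochondria, differed by -0.41. Of 22 genes of lipid droplets and lipolysis 12 were lower and 2 higher. After G0s2, Mgll, the monoacylglycerol lipase, was lowest (-1.26 ± 0.15), while Pnpla2, the triglyceride lipase that G0s2 inhibits, was 0.86 ± 0.25 higher. Pnpla2 read 11.40, 11.84, 12.66 and 10.35 against 10.36 to 11.11, and its call was lost without WSB/EiJ animal 2 or without animal 3, at a lowest value of 0.49. Pparg, the related receptor that favours fat storage, differed by -1.32 ± 0.12 without overlap. Of 21 genes of cholesterol synthesis and uptake 10 were lower and 3 higher, and 14 were lower without animal 4. Sc5d, a late enzyme of the pathway, read 9.73, 9.36, 9.20 and 10.51 against 11.40 to 12.68, median 11.76 (-2.28 ± 0.16, adjusted p = 3.73e-08), and Fdft1, squalene synthase, differed by -1.56 ± 0.25. In the drug-treated animals 8 were higher and 3 lower, with a median of 0.80, a change that was not tested for the list. Over all genes 24% were higher and 28% lower on the drug. Cyp51, for example, differed by -0.58 on vehicle and by 2.28 on the drug. Its vehicle call was lost without WSB/EiJ animal 1 or without animal 2.

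Plasma proteins of complement and coagulation were mostly lower, whereas acute phase proteins were not. Of 36 complement and coagulation genes 24 were lower and 2 higher, with a median of -0.38, and the mean level over the list was 11.13 to 11.50 in the WSB/EiJ animals and 11.72 to 11.99 in the others. Members of the membrane attack complex were among the lowest. With C9 at the bottom, C8b read 9.53, 9.55, 9.59 and 9.31 in WSB/EiJ and 11.16 to 12.23, median 12.05, in the others. The WSB/EiJ animals were nearly equal to each other, and the difference was -2.40 ± 0.12 (adjusted p = 1.65e-09). C8a differed by -1.28 and C6 by -0.48, while Hc, complement component C5, differed by 0.14 ± 0.07 and did not pass (adjusted p = 0.0983). Masp1, a protease of the lectin pathway, was lower by 1.37 log2 units (-1.37 ± 0.17), as were Klkb1, plasma prekallikrein (-1.17), and F11, coagulation factor XI (-0.97). The 2 that were higher were F9, factor IX (0.47), and Kng1, kininogen (0.15). C1qa, C1qb, C1qc and Fcna also belong to the macrophage list below. Of 30 acute phase genes 11 were higher and 1 lower, Orm3, Il1rn (1.23), Cd14 (1.19, or 0.74 without WSB/EiJ animal 3) and Serpina3n (1.08) leading; Saa1 and Saa2, the classical serum amyloids, differed by -0.42 and 0.18 and did not pass. Hamp2, the second hepcidin gene, was the 1 that was lower (-1.38), while Hamp, the iron hormone hepcidin, was 0.36 higher.

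Markers of Kupffer cells, the resident macrophages of the liver, were mostly lower. Of 16 tested 13 were lower and 0 higher, with a median of -1.04, and the same counts held without animal 4. Timd4, a phosphatidylserine receptor of resident macrophages, read 6.63, 5.64, 6.38 and 5.87 in WSB/EiJ and 7.09 to 8.58, median 8.01, in the others. Csf1r, the receptor on which macrophages depend, read 9.60, 9.21, 9.40 and 9.82 against 10.17 to 11.49, median 11.01. Clec4f, a lectin found on Kupffer cells, read 8.79, 8.41, 9.19 and 9.35 against 9.37 to 10.55, median 10.04. None of these 3 genes overlapped with the other strains, and the differences were -1.82 ± 0.18 (adjusted p = 1.84e-06), -1.35 ± 0.11 (adjusted p = 1.65e-07) and -1.09 ± 0.14 (adjusted p = 2.54e-05). Cd163 (-0.44, adjusted p = 0.0699; -0.61 and passing without WSB/EiJ animal 3), Nr1h3 (0.12) and Slc40a1 (0.16), the last 2 also expressed by hepatocytes, did not pass. The mean level over the list was 8.15 to 8.63 in WSB/EiJ and 8.85 to 9.76 in the others, MA/MyJ being the next lowest strain. In whole liver, fewer cells of a type and less RNA per cell cannot be told apart. In the drug-treated animals 6 of the 16 were lower and 0 higher, with a median of -0.55, where 28% of all genes were lower. Clec4f (-0.57) and Vsig4 (-0.50) did not pass there.

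Other lists of immune and blood cells moved in part. Of 7 genes tested on the monocyte and recruited macrophage list 3 were lower, against 19.6% of all genes, and 1 of the 3 lay beyond all 3 strain means. Of 9 B and plasma cell genes 3 were lower: Sdc1, a plasma cell and hepatocyte proteoglycan (-0.51), and the B cell surface proteins Cd79b (-0.24) and Cd22 (-0.21), whose calls were lost in 7 and 11 of the 16 fits that left out 1 animal. T cell markers had 3 genes above the filter and 0 that passed. Of 7 erythroid genes 5 were lower, with a median of -1.21. Alas2, the first enzyme of heme synthesis in red cells, read 7.16, 6.99, 6.68 and 8.01 in WSB/EiJ and 8.88 to 10.62, median 9.91, in the others (-2.56 ± 0.27, adjusted p = 2.87e-06), and Klf1, the erythroid master factor, differed by -1.40. Of 16 sinusoidal endothelial markers 3 were higher and 3 lower, and of 15 stellate cell and fibroblast markers 4 and 4, so neither of these cell types leaned to one side. Among 19 general hepatocyte markers 6 were higher and 2 lower, and Alb, albumin, differed by -0.02.

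Of 9 genes of MHC class II presentation 6 were lower and 0 higher, with a median of -0.53. On the drug 2 were lower and 0 higher, with a median of -0.21, where 28% of all genes were lower. H2-Eb1, a class II beta chain, read 6.07, 6.10, 6.08 and 6.21 in WSB/EiJ and 7.28 to 8.57, median 7.96, in the others (-1.81 ± 0.11), all 4 WSB/EiJ values lying in the dim range. Cd74, the invariant chain, which is not part of the polymorphic loci, differed by -1.0 ± 0.16 without overlap. Of 20 genes of MHC class I and antigen processing 12 were lower and 1 higher. H2-D1, a classical class I heavy chain, differed by -1.62 ± 0.07 on its brightest probe set and by 0.76 (adjusted p = 2.84e-06) on the mean of its 9 probe sets, so its direction depends on the probes. B2m, the invariant light chain, differed by -0.16.

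**Figure D4:**
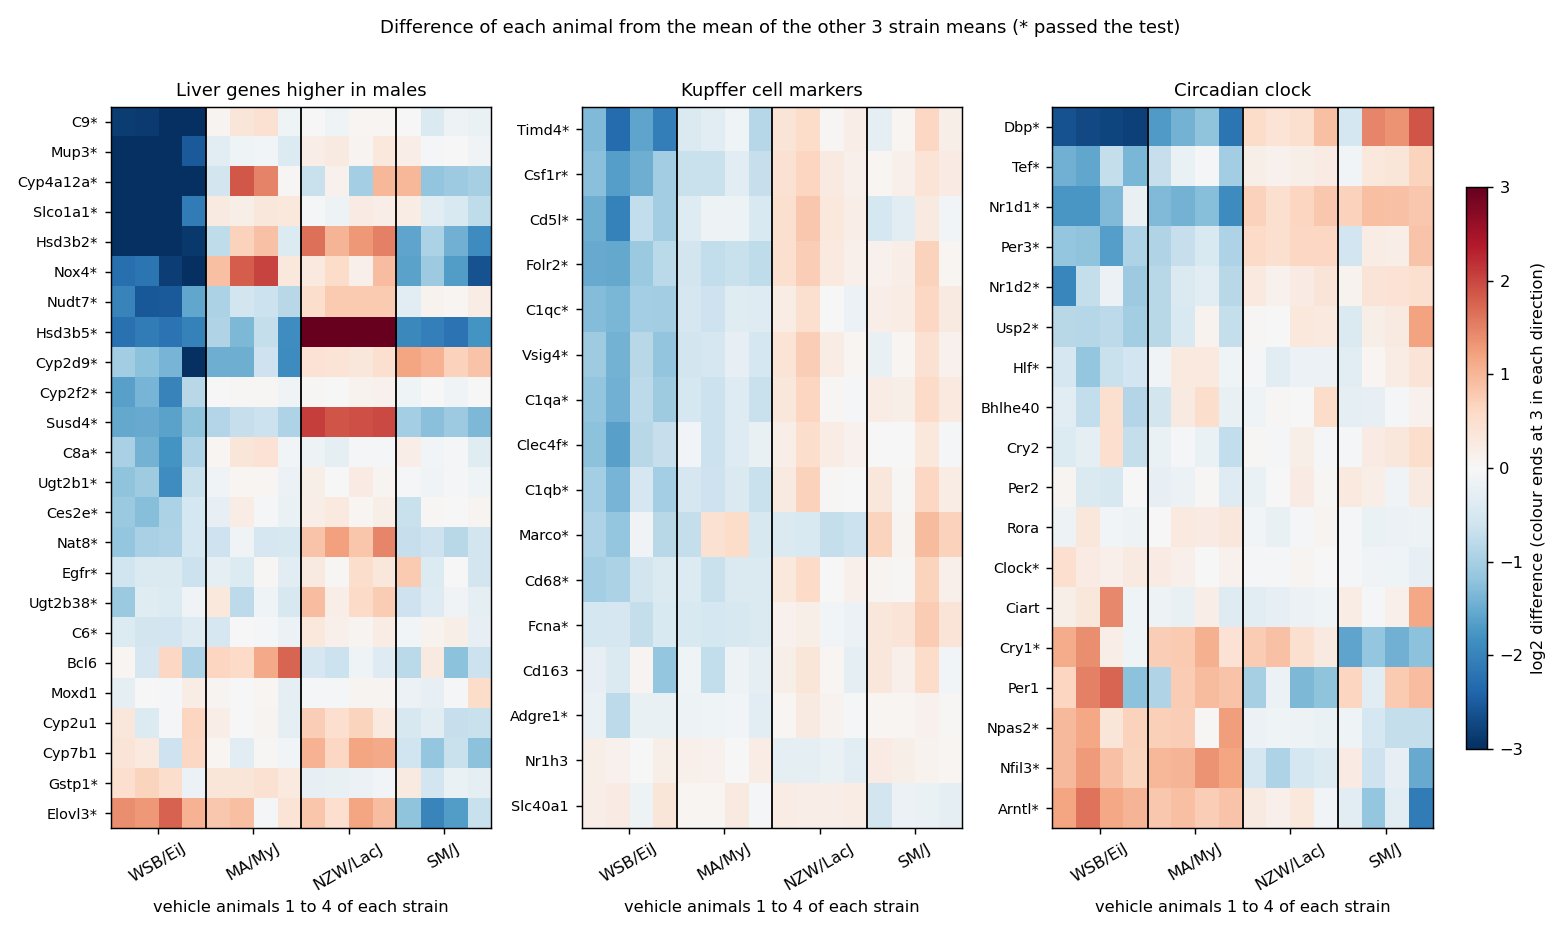
Each cell is 1 gene (row) in 1 vehicle animal (column, animals 1 to 4 of each strain), coloured by its log2 difference from the mean of the MA/MyJ, NZW/LacJ and SM/J means; an asterisk marks genes that passed. The WSB/EiJ columns are blue for most male-biased genes (18 of 24 lower) and Kupffer cell markers (13 of 16 lower), while clock genes split into a lower and a higher group.

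Among genes that are graded along the liver lobule, pericentral genes were mostly lower, and periportal genes were more often higher, by smaller steps. Of 14 pericentral genes, which hepatocytes around the central vein express, 11 were lower and 0 higher, with a median of -0.63; of 11 periportal genes 7 were higher and 1 lower, with a median of 0.24. The mean over the pericentral list was 10.04 to 10.78 in WSB/EiJ and 11 to 11.38 in the others. Over the periportal list it was 12.95, 12.99, 12.77 and 13.03 in WSB/EiJ animals 1 to 4 and 12.76 to 12.95 in the others, so animal 3 lay within their range. In the drug-treated animals 9 pericentral genes were lower and 1 higher, and 3 periportal genes were higher and 1 lower. Over all genes 28% were lower and 24% higher there. Lect2, a secreted hepatokine, read 10.12, 9.68, 8.79 and 11.21 in WSB/EiJ and 11.31 to 12.36, median 11.95, in the others (-1.93 ± 0.27, adjusted p = 4.34e-05; -2.35 without animal 4). Slc13a3, a dicarboxylate transporter, differed by -1.80, Rgn, regucalcin, by -1.44 and Glul, glutamine synthetase, the sharpest pericentral marker, by -0.53 ± 0.10. Glul lay at 12.32 to 13.09 in WSB/EiJ and just above that, at 13.09 to 13.37, in the others. On the periportal side Hal, histidine ammonia-lyase, was 0.57 ± 0.13 higher and Asl, of the urea cycle, 0.55 higher. Cyp2f2, a P450 of the periportal zone that also stands on the male-biased list, was the exception, lower by 1.46 log2 units (-1.46 ± 0.13).

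The circadian clock runs on a loop in which Arntl, with Clock or Npas2, drives Per, Cry and Nr1d genes through E-box elements, Nr1d proteins repress Arntl through ROR elements, and Dbp, Tef and Hlf act on D-box elements that Nfil3 represses. Of 18 clock genes tested in WSB/EiJ liver 7 were lower (38.9%) and 5 higher (27.8%), against 19.6% and 22.4% of all genes. The lower genes were Dbp, Tef, Nr1d1, Per3, Nr1d2, Usp2 and Hlf, and the higher ones Arntl, Nfil3, Npas2, Cry1 and Clock. Nr1d1, Nfil3 and Cry1 did not lie beyond all 3 strain means, MA/MyJ lying past WSB/EiJ for each. Dbp read 6.90, 6.80, 6.77 and 6.71 in WSB/EiJ and 7.31 to 11.40, median 9.96, in the others. The WSB/EiJ animals were nearly equal and the lowest of all, MA/MyJ was next at a mean of 7.88, and the difference was -2.72 ± 0.30 (adjusted p = 5.2e-06). Arntl read 10.20, 10.64, 10.16 and 10.02 against 6.92 to 9.92, median 9.22 (1.25 ± 0.23, adjusted p = 0.000483). Here too MA/MyJ, at 9.84, lay next to WSB/EiJ. Tef differed by -1.27, Per3 by -1.24, Npas2 by 0.80 and Nfil3 by 0.95. Cry1 differed by 0.64 and lost the call without WSB/EiJ animal 1 (0.49) or without animal 2 (0.40). Nr1d1 was lower on the contrast (-1.26 ± 0.20), yet MA/MyJ at a mean of 7.08 lay below WSB/EiJ at 7.29, with NZW/LacJ at 9.20 and SM/J at 9.37. Per1, whose WSB/EiJ animals read 8.83, 9.70, 9.91 and 6.94, did not pass (0.67, adjusted p = 0.258) and did without animal 4 (1.30, adjusted p = 0.0089). The labels give the hours since the last dose and no time of day.

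Promoters of the clock genes are shown because these members moved in opposite directions. RefSeq windows on GRCm38.p6, of 300 bases around a start site and mostly before it, were found for 17 of the 20 clock genes listed, and were searched on both strands for the E-box CACGTG, the D-box TTATGTAA and the ROR element half-site AGGTCA. Of the 7 lower genes, 1 held the E-box (Tef), 1 the D-box (Per3) and 1 the half-site (Nr1d2); of the 5 higher genes, 1 held the E-box (Cry1), 0 the D-box and 3 the half-site (Arntl, Clock and Nfil3), counting any of a gene's windows. Counted the same way over all 27025 genes with a window, the shares were 8.09%, 1.11% and 18.1%; over all 32851 windows they were 7.15%, 0.938% and 16.3%. The motifs are described in the reference sequence, not in that of WSB/EiJ, and nothing follows from a window without them about the factors. Arntl and Tef had 2 windows each, of which 1 is shown. The other Tef window also held the E-box, and the other Arntl window held none of the 3 motifs. The windows below lie at chr15:81802423-81802722 on the plus strand for Tef, chr4:151044616-151044915 on the minus strand for Per3, chr10:85185005-85185304 on the minus strand for Cry1 and chr7:113207261-113207560 on the plus strand for Arntl, each written 5′ to 3′ along its gene with the matches in capitals.
Tef: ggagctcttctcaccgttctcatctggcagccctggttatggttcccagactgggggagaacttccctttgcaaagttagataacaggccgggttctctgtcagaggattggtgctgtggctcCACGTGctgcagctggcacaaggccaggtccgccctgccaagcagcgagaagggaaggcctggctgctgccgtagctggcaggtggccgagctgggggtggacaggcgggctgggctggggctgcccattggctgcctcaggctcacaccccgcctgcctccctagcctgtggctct
Per3: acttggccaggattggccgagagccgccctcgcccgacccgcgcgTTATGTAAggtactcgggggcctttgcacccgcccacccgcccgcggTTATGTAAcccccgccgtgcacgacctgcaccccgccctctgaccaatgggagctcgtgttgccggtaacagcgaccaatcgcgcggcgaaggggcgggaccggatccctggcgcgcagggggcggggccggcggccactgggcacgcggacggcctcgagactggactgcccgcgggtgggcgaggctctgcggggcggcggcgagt
Cry1: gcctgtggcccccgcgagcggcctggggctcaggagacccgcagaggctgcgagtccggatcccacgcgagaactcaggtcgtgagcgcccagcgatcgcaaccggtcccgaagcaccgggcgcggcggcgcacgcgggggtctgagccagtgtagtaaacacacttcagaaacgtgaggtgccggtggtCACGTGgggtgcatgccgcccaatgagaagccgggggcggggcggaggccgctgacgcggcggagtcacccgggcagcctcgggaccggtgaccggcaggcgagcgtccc
Arntl: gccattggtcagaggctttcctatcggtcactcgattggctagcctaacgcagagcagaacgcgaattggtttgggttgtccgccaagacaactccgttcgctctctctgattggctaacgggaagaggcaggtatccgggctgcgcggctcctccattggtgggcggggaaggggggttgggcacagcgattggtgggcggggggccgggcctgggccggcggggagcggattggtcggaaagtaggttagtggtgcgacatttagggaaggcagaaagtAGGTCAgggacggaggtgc

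Among genes of protein quality control, 24 heat shock genes counted 4 higher and 4 lower, and 8 higher without WSB/EiJ animal 4. Of 34 proteasome subunits 23 were higher and 0 lower, by small steps: the median was 0.22 and the largest, Psma3, read 11.48, 11.52, 11.37 and 11.34 against 10.61 to 11.34 (0.49 ± 0.08, adjusted p = 0.000126). In the drug-treated animals 4 were higher and 12 lower, where 24% of all genes were higher and 28% lower. Of 31 genes of the unfolded protein response 14 were higher and 1 lower, with a median of 0.39; 19 were higher without animal 4. Hspa5, the main chaperone of the endoplasmic reticulum, was 0.44 ± 0.15 higher, Xbp1, a transcription factor of the response, 0.39 ± 0.09 and Atf3, a stress-induced factor, 1.49 ± 0.40. On the probe set nearest to 0 Hspa5 differed by 0.06 and Xbp1 by 0.04, and neither passed; the Hspa5 call was also lost without WSB/EiJ animal 1 or without animal 3. Atf3 read 7.11, 9.42, 9.49 and 6.72, so animals 1 and 4 lay within or near the 6.07 to 7.21 of the other strains. Of 21 cytosolic ribosomal protein genes 11 were higher, by 0.17 to 0.37, and only Rpl14 was lower (-1.69), on 1 probe set that was dim in WSB/EiJ.

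Of 19 NRF2 antioxidant genes 10 were higher and 3 lower. Nqo1, a quinone reductase and standard marker of this response, read 9.62, 9.31, 9.10 and 9.35 in WSB/EiJ and 7.57 to 8.07, median 7.81, in the others. All 4 animals were high and alike, and the difference was 1.52 ± 0.09 (adjusted p = 4.71e-09). Abcc4, a basolateral export pump, was 2.56 ± 0.20 higher, without overlap at 8.48 to 9.71 against 5.80 to 7.57. Hmox1, heme oxygenase, was higher at 1.20 ± 0.40, but read 9.68, 11.13, 12.10 and 8.63 against 8.65 to 9.79; its call was lost without WSB/EiJ animal 2 or without animal 3, at a lowest value of 0.62. In the drug-treated animals Nqo1 differed by 0.03 and did not pass (adjusted p = 0.88). Of 20 p53 targets and apoptosis genes 10 were higher and 3 lower. Cdkn1a, the p21 cell cycle inhibitor, read 12.41, 12.59, 12.78 and 11.14 against 8.36 to 11.81, median 9.35 (2.27 ± 0.32, adjusted p = 5.28e-05), the MA/MyJ mean of 11.52 being nearest and animal 4 overlapping with that strain. Trp53inp1, a stress protein that p53 induces, was 1.34 higher, Sesn1, a sestrin, 1.30 and Bid, a pro-death BCL2 family member, 1.30, although SM/J at a mean of 9.17 nearly equalled WSB/EiJ at 9.23 for Bid.

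Interferon-stimulated genes depended on animal 4. Of 37 tested 4 were higher and 5 lower with all animals, while 2 were higher and 19 lower without it. Ifit1, an antiviral effector, read 6.55, 6.33, 6.91 and 9.80 in WSB/EiJ and 6.52 to 8.17, median 7.48, in the others, so animal 4 was the highest of all 16 and animals 1 to 3 lay under the median of the others. Its difference was -0.02 (adjusted p = 0.974) with animal 4 and -0.82 (adjusted p = 0.004) without it. Cxcl9, a chemokine that interferon gamma induces, was lower with all animals (-1.66 ± 0.34) and without overlap. Of 11 interferon-inducible GTPases 5 were lower and 0 higher. Without animal 4 there were 8 lower, and 3 without animal 2. Over all genes the lower calls fell from 2447 to 1962 without animal 2.

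How far each WSB/EiJ animal followed its group was measured on genes that set the other 3 WSB/EiJ animals at least 0.5 log2 units beyond all 12 other animals, on a scale where 0 is the mean of the other strains and 1 that of the other 3 WSB/EiJ animals. Animals 1, 2 and 3 had median positions of 1.02, 1.03 and 1.01 over 137, 139 and 153 genes. Their genes had to set animal 4 apart as well, which can widen the gap to animal 4. Animal 4 had a median of 0.563 over 325 genes (quartiles 0.328 and 0.807), and 144 of these genes (44.3%) lay below the midpoint. It was close to its group for Ugt3a2, C9, C8b, Col5a2, Sult1e1, Slc4a9 and Dbp and away from it for Car3, Ddit4, Akr1c6, Igfals and Nat8f2.

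The same strain contrast was available in other animals of the strains, those given PF-04287881. With the doubtful array left out, 2 WSB/EiJ animals remained against 12 others, and 6475 genes passed (52%), 2992 higher (24%) and 3483 lower (28%); with it, 4640 (37.2%). The drug differs between these comparisons, so a difference can also come from a strain-dependent drug effect. A variant under a probe is carried by every animal of a strain, so the drug animals give no check on it. Bub3, for which 2 bright probe sets differed, was at -5.64 on vehicle and -5.60 on the drug. The share of all genes with the same sign in both comparisons was not counted. Of the 4767 genes called beyond all 3 strain means on vehicle, 3914 had the same sign on the drug (82.1%), 2810 passed with that sign (58.9%) and 296 passed with the opposite sign. Of the 261 of these that were lower by at least 1 log2 unit, 257 kept the sign, 240 passed and 0 passed the other way; of the 209 that were higher by at least 1, 192 kept it, 167 passed and 9 passed the other way. Col5a2 read 12.22 and 11.81 in the 2 WSB/EiJ animals and 6.37 in the doubtful array, and Ugt3a2 read 6.80, 6.21 and 12.27 in the same order. For both genes the doubtful array sat with the other strains. Probe sets set apart in this way built the scale that marked the array as doubtful, so these values are no separate check of it. Col5a2 differed by 5.61 on the drug and Ugt3a2 by -5.51. Tpmt was further below the other strains on the drug (-3.63) than on vehicle (-1.49), and Slco1a1 was less far below (-1.43 against -3.31). Both changes passed a test of the interaction, which 31.8% of all genes passed, at adjusted p = 8.05e-06 and 0.00233. Both genes were named for their vehicle differences, which that test also uses.

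**Figure D5:**
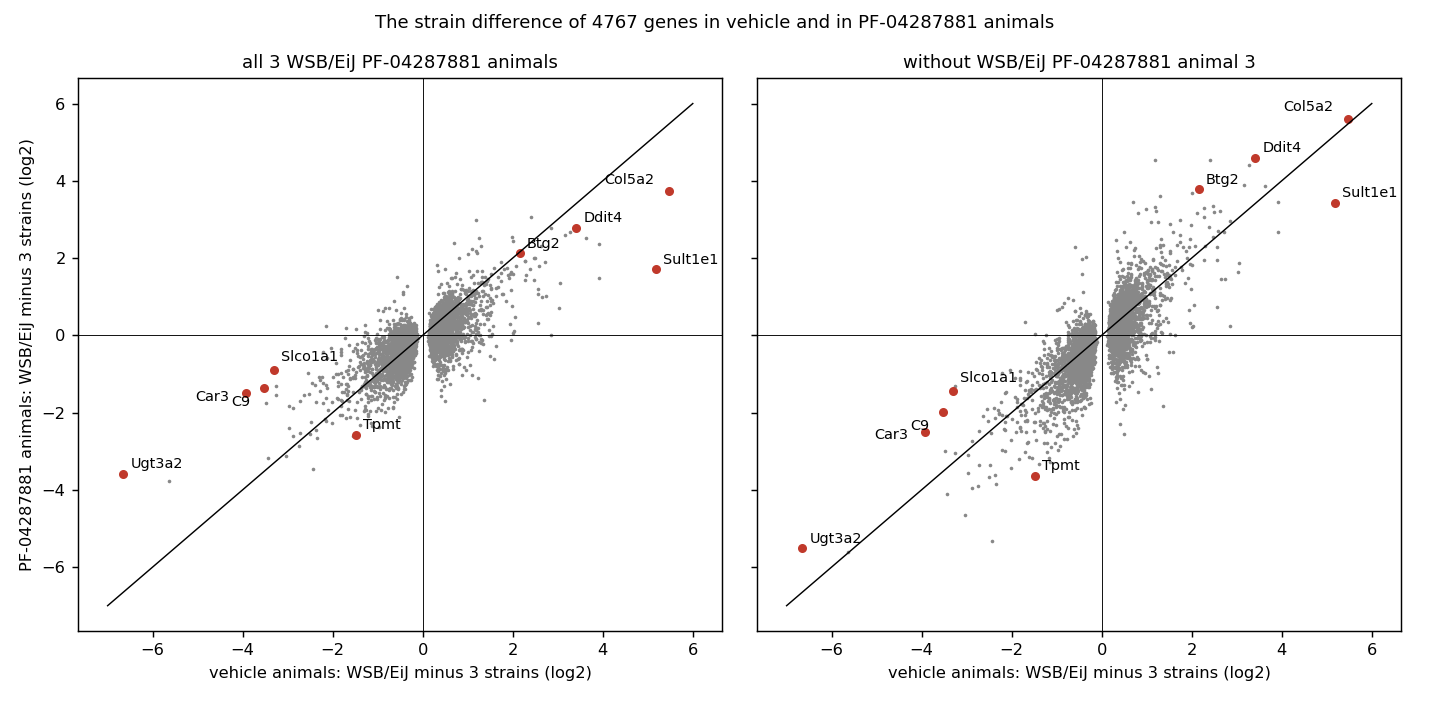
The strain difference of 4767 genes, WSB/EiJ minus the mean of the other 3 strains in log2 units, in vehicle animals (x axis) and in PF-04287881 animals (y axis), with all 3 WSB/EiJ drug animals on the left and without animal 3 on the right; the line marks equal differences. On the right Col5a2 stands at 5.61 and Ugt3a2 at -5.51.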

How the data were processed

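Liver RNA was hybridised to Affymetrix expression arrays, 1 array per mouse. The authors deposited log2 values made with RMA in Affymetrix Power Tools, per the submitters' processing notes; versions and array files are not given in the sources used here. RMA gives no detection call, so a dim value has no measured zero, and the number of arrays limits the precision. Each gene was represented by its brightest probe set on average over the 31 arrays, named through the platform annotation (34717 probe sets with 1 symbol, 872 with several, 9132 with none) with symbols updated to GRCm38.p6. The 12461 genes above 6.49 in at least 4 of 16 vehicle arrays were fitted with limma 3.58.1 in R 4.3.3 (lmFit, eBayes, 1 mean per strain, two-sided, 12 residual df), adjusted by Benjamini-Hochberg over all genes tested. Errors in the report are the standard errors of that fit.

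The members and the gene lists were chosen with earlier results of these data known. The genes named were the 15 largest differences each way beyond all 3 strain means, the 10 each way with the largest smallest difference over several passing probe sets, and up to 4 passing members of each list, or 2 as values; predicted and clone names were left out. A further 44 genes, mainly standard markers of a list, were chosen after their values were seen. No 2 arrays were identical. Replicate numbers did not pair the samples: correlations of same-numbered deviations ran from -0.274 to 0.161. On simulated data for this contrast with 12461 genes, 75 of 100 genes changed by 0.5 and 95 of 100 changed by 1 were recovered, with 5.03% false calls. The simulated spread of a gene was the same in every strain, with no stray animal and few changed genes. These rates therefore need not hold for the calls in these data. The alternatives changed the filter, the choice of probe set, the scaling, the variance model and the arrays used, and left out each animal in turn.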

Additional observations from a re-analysis of the deposited data

Results flagged for a closer look

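Among the 45 genes with the largest or the best supported differences, 180 groups of 4 animals were searched for an animal far from its group, by the gap to its nearest neighbour over the group's range. That ratio exceeded Dixon's critical value for 4 samples in 10, and chance gives about 1 group in 20. In WSB/EiJ they were Nat8f2 in animal 4 (ratio 0.907), which read 11.96 against 10.20 to 10.36, and Arl15 in animal 2 (0.938). In SM/J they were Cyp4a12a (0.913), Dclk3 (0.896) and Sult1c2 (0.948), all in animal 1, and Cyp2b10 (0.866) and Cyp2d13 (0.842), both in animal 4. The others were Dclk3 in MA/MyJ animal 4 (0.935), Rnf225 in NZW/LacJ animal 2 (0.846) and Ociad2 in NZW/LacJ animal 4 (0.922).

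For 13 of these genes the strain difference itself differed between drug and vehicle animals, by limma's interaction over 30 arrays with Benjamini-Hochberg adjustment, a test that 31.8% of all genes passed. The difference moved downwards on the drug for Tpmt (-2.15), Sult1e1 (-1.76), Inhbe (-1.61), Rnf225 (-1.39), Serpina3a (-1.28), Cenpm (-1.20) and Sult1c2 (-1.15). It moved upwards for Bex1 (1.14), Ugt3a2 (1.15), C9 (1.54), Btg2 (1.63), Slco1a1 (1.88) and Rdh9 (1.96). The difference of Sult1e1 was 5.19 on vehicle and 3.43 on the drug, and that of Rdh9 -3.26 and -1.31. These values rest on 2 WSB/EiJ drug animals.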

How the results depend on the processing

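The count of genes that passed stayed within 1.5 times of 5239 in every setting run, from 3806 with the probe set nearest to 0 to 6141 without WSB/EiJ animal 4. Shifting each array to 1 median moved the median of all genes by about -0.05 and the share of calls that were higher from 53.3% to 43.5%. The count that passed against each of the 3 strains was 1814 and became 1189 with the probe set nearest to 0; with 1 animal left out it ran from 1432 (without WSB/EiJ animal 2) to 2821 (without WSB/EiJ animal 4). With 1 animal left out, all calls ran from 4203 to 6141, calls beyond all 3 strain means from 3895 to 5684, and differences of at least 1 from 428 to 661. The fit with replicate number as a block gave 5102 calls and ended 2 and added 1 of the calls of 266 named genes; the numbers share only a label. The sign changed for Bub3 (0.077 without probe sets that match several transcripts, and 0.077 on the probe set nearest to 0). On the probe set nearest to 0 it also changed for Slc39a14 (-0.12) and Psmd4 (-0.092). On the mean of a gene's probe sets it changed for Ndufb8 (0.049), H2-D1 (0.76) and Irf8 (-0.084). Only H2-D1 passed limma's moderated test with its changed sign (adjusted p = 2.84e-06). The others lay at adjusted p from 0.325 to 0.689 in that test, so their changed signs are not told apart from 0. For all of these genes the choice of probe set is what differs. Of 7398 gene values under alternatives, 7207 were counted as unchanged, 158 lost the call, 26 gained it and 7 changed sign. A change of sign was counted only for genes that passed the main fit. Signal near background limits what can be said of genes dim in 1 group.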

Other observations

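Of 50 subunits of the mitochondrial respiratory chain 12 were lower and 1 higher in WSB/EiJ vehicle liver, with a median of -0.08, where 19.6% of all genes were lower. In the drug-treated animals 30 were lower and 0 higher, with a median of -0.21, where 28% of all genes were lower; the difference between the 2 counts was not tested, and the fits differ in their number of WSB/EiJ arrays. On vehicle 22.4% of all genes were higher and 19.6% lower. Of 33 genes of iron, zinc and heme handling 13 were higher and 8 lower. Of 33 genes of the urea cycle and amino acid catabolism 11 were higher and 8 lower. Of 45 lysosomal genes 18 were lower and 9 higher. On the mean of a gene's probe sets 4 were higher, where the higher calls over all genes fell from 2792 to 2562. Of 35 nuclear receptors and liver transcription factors 14 were lower and 7 higher, and 9 were lower without WSB/EiJ animal 2. Without that animal the lower calls over all genes fell from 2447 to 1962.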
